A study of Mus musculus with 16 samples.

Results

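The regions described here are ATAC-seq peaks of a fixed narrow width that male mouse germ cells held at E13.5 (E, embryonic day) and that no later peak list of the same study met. ATAC-seq inserts sequencing adapters into accessible DNA with a transposase, and a peak marks a stretch where insertions are concentrated. A peak of the E13.5 heterozygous list was taken when it overlapped a peak of the E13.5 knockout list by at least 1 bp and overlapped no peak of the E16.5 heterozygous, E16.5 knockout, P0 or P3 lists. This rule left 7447 regions out of 31822 peaks shared by both E13.5 lists (23.4%) and out of 40448 peaks of the E13.5 heterozygous list, in a series of 302829 peaks over 6 distinct lists. The members were thus chosen by the presence and absence of peaks in the lists, so every share of peaks that was E13.5 only is a description and carries no test.

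The study asked what loss of *Morc1*, a gene needed for transposon silencing in male germ cells, does to the chromatin of gonocytes, as male germ cells are called from the fetal gonad until shortly after birth. Its 16 samples form 8 groups of 2: *Morc1* (+/-) or *Morc1* (-/-) germ cells from fetuses at E13.5 and E16.5 and from pups on the day of birth (P0) and on postnatal day 3 (P3). All came from testes of male Mvh-Venus transgenic mice, so the controls also carry the reporter, named for the germ cell gene *Ddx4* (Mvh), and a mutant copy of *Morc1*. The number of animals behind a sample is not given in the sources used here. The submitters deposited 1 peak list per stage and genotype, with positions and no heights. The P0 lists of both genotypes held the same 67258 rows and the P3 lists the same 44760, so those stages carry no genotype here.

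At E13.5 male germ cells have recently settled in the gonad. They are leaving the primordial germ cell state, in which pluripotency genes are active, and stop dividing over the following days as NANOS2, Nodal and FGF signals act in the fetal testis. Accessible chromatin away from gene starts is largely made of enhancers and other distal elements, which vary among cell states more than promoters do. CpG-rich promoters tend to stay accessible in most cell types.

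Few of the regions lay at a gene start. Those that did overlapped 257 RefSeq start windows of 230 genes, and 46.7% of these windows belonged to long noncoding RNAs. Of the 25 genes of the pluripotency list, only *Lin28a* had a region in a tabled start window. Of the 24 genes of the primordial germ cell list, only *Ifitm1* and *Ifitm3* did. The genes shown here thus do not stand for the set. The bases before the start are shown for 4 of the 5 genes of the pathway lists with a region over most of that stretch and for *Otx2*, a homeobox gene that restrains entry into the germ line, which was chosen after its values were seen. The fifth, *Cbx3*, is not shown because an E16.5 peak lies 38 bp from its region. Each run holds the 250 bases before a RefSeq start (GRCm38.p6), 5′ to 3′ on the strand of the gene, and lies wholly inside an E13.5-only region. Capitals mark exact matches, on either strand, to the motifs searched. In *Lin28a* they are a CTCF core (AGGGGGC) and an AP-2 site (GCCNNNGGC), in *Ifitm3* an AP-1 site (TGANTCA) and a GC box (GGGCGG), and in *Otx2* the KLF CACCC box (CCCCACCC) and the GATA core, AGATAA. *Ifitm1* and *Dhrs3* held no match.
Lin28a: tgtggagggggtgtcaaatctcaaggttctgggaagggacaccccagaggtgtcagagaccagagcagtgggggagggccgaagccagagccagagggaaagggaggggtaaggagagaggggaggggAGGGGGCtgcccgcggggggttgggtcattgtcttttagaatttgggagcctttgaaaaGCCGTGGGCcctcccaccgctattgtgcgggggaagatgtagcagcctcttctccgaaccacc
Ifitm1: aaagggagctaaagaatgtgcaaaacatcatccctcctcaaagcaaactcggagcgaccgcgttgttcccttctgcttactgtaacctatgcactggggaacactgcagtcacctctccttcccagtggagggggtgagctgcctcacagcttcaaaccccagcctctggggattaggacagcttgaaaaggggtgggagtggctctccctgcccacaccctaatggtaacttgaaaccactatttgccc
Ifitm3: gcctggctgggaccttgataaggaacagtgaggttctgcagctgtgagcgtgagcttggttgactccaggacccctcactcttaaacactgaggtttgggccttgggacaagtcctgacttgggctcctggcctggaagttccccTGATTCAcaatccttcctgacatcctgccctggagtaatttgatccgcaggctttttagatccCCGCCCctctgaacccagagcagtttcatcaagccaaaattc
Dhrs3: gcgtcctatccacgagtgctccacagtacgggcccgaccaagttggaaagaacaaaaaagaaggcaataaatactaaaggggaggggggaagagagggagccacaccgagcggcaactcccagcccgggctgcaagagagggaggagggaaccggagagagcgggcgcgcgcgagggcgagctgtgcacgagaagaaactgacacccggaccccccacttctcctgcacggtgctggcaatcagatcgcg
Otx2: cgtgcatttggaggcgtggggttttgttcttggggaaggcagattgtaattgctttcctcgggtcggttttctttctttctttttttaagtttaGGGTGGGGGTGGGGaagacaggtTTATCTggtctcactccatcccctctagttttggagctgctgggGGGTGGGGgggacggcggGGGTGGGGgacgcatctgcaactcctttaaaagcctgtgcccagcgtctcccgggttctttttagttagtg

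*Lin28a* (chr4:134018817-134019066, minus strand) encodes an RNA-binding protein that blocks maturation of let-7 microRNAs. *Ifitm1* (chr7:140967826-140968075, plus strand) and *Ifitm3* (chr7:141010745-141010994, minus strand) encode membrane proteins of early germ cells, and *Ifitm3* is also known as Fragilis. *Dhrs3* (chr4:144892577-144892826, plus strand) encodes a reductase that turns retinaldehyde back into retinol. The *Otx2* run is chr14:48662735-48662984 on the minus strand. These 5 windows lie wholly inside E13.5-only regions, so by the rule no peak of the E16.5, P0 or P3 lists meets them. The nearest later peak lay 6361 bp from the *Lin28a* region, 25797 bp from that of *Ifitm1*, 1189 bp from that of *Ifitm3* and 18953 bp from that of *Dhrs3*, whose region is also within the bounds of its neighbour *Vps13d*.

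Some start windows carried the octamer ATGCAAAT, the sequence that POU factors such as OCT4 (POU5F1) bind. Of 17 such octamers in 16 genes, 13 lay inside a region, and 6 of these are shown. No rule set beforehand gave the choice, and others inside a region, such as those of *Defb9* and *Gm32403*, are left out. Each line gives the octamer in capitals, or its reverse complement ATTTGCAT, with 15 bases on each side, 5′ to 3′ on the strand of the gene. All 6 octamers shown lie inside an E13.5-only region.
Platr21: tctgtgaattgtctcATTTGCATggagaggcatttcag
Pipox: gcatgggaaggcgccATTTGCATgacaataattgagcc
Gm34201: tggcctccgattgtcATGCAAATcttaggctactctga
Hdac9: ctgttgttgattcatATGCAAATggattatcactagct
Hpgds: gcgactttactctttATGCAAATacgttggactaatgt
Duoxa2: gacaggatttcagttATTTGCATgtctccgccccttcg
*Platr21*, a long noncoding RNA named as a pluripotency-associated transcript, has its octamer at chrX:139357830-139357837, 99 bases before the start. *Pipox*, an enzyme of peroxisomes, has it 195 bases before the start (chr11:77894060-77894067), and the noncoding RNA *Gm34201* 68 bases before (chr15:84622224-84622231). *Hdac9* (chr12:34528931-34528938) encodes a histone deacetylase, *Hpgds* (chr6:65144897-65144904) a prostaglandin D synthase and *Duoxa2* (chr2:122298775-122298782) a maturation factor of a dual oxidase.

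The regions overlapped 257 RefSeq start windows (250 bases before to 50 after a start), 2.10% of the 12253 that shared E13.5 peaks overlapped, and 16 of the 257 held the octamer. That is 6.23% (95% Wilson interval 3.87 to 9.87%), against 1.46% (1.26 to 1.69%) of 11996 windows overlapped by E13.5 peaks found again later and 1.74% of all 32851 windows. The E16.5-only windows held it in 1.16% (1 of 86, interval 0.206 to 6.30%), the P0-only windows in 1.46% (5 of 342) and the P3-only windows in 4.11% (3 of 73, interval 1.41 to 11.4%), so the E16.5 and P3 intervals overlap that of E13.5. Restricted to windows that are not CpG-rich, the share was 7.32% (15 of 205) for the E13.5-only regions and 2.32% (70 of 3018) for the peaks found later. The 17 octamers fell in 16 genes, of which 7 are protein-coding, and 13 of the 17 lay inside the region itself. These intervals cover counting error over windows and count each window as independent. They are not all so, because the 257 windows come from 227 distinct regions and 230 genes, and some windows of a gene overlap. The intervals are thus too narrow, here and for the motif, CpG and gene type shares below. No spread between replicate samples exists for any value here, because each group has 1 list, and no difference between lists was tested across samples.

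Other motifs were counted in the same windows, 23 motifs in all. The GC box GGGCGG was in 31.1% of the E13.5-only windows (interval 25.8 to 37.0%), in 70.4% of the windows found later and in 35.7% of all windows. It was in 30.2% of the E16.5-only and 29.8% of the P0-only windows, near the E13.5-only share. The ETS site CCGGAAGT was in none of the 257, a count of 0 with a limit of 1.17% at 3 counts and a Wilson upper bound of 1.47%, and in 8.57% of the windows found later. It was also in 0 of 86 E16.5-only and 0 of 73 P3-only windows. The P0-only windows held it in 4.09% (14 of 342, interval 2.45 to 6.75%) and all windows in 3.89%. Among windows that are not CpG-rich, 0 of 205 E13.5-only windows held the ETS site and 5.67% of those found later. NRF1 (GCGCATGCG) was likewise in none of the 257, against 3.99% of the windows found later. It was in 0 of 86 E16.5-only, 2 of 342 P0-only and 1 of 73 P3-only windows. Among windows that are not CpG-rich, 0 of 205 E13.5-only windows held it and 1.82% of those found later. The SOX core ACAATGG stood in 5.84% (3.57 to 9.41%) of the E13.5-only windows and 1.73% of those found later, but also in 6.98% of the E16.5-only and 5.26% of the P0-only windows. The core of GATA sites, AGATAA, was in 12.1% against 4.86%, with 11.2% over all windows. A match is a run of letters in this window and says nothing about binding.

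**Figure D1:**
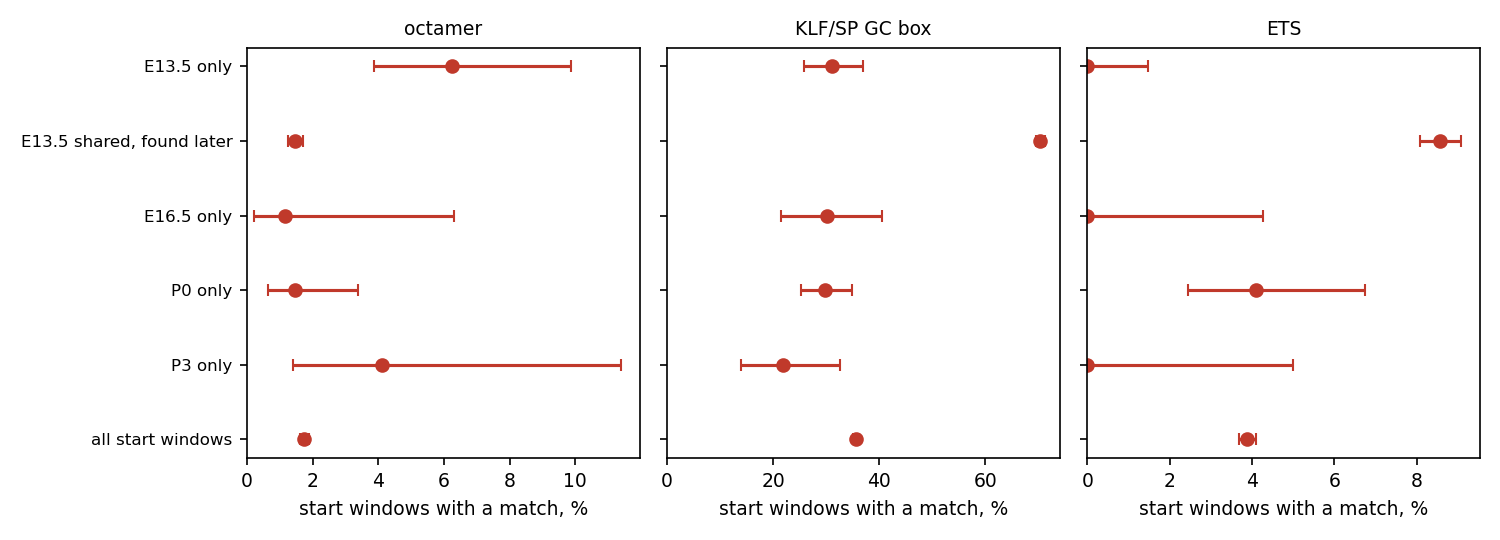
Share of RefSeq start windows (x axis, %) that held an exact match on either strand to the octamer ATGCAAAT, the GC box GGGCGG and the ETS site CCGGAAGT, for windows overlapped by each set of peaks and for all windows (y axis). Points are shares and bars are 95% Wilson intervals; the octamer point of the E13.5-only windows is at 6.23% and that of the peaks found later at 1.46%, while the GC box is at 31.1% and 70.4%.

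The start windows of the regions were mostly poor in CpG, and nearly as many belonged to noncoding RNAs as to protein-coding genes. Protein-coding genes made up 53.3% of the 257 (47.2 to 59.3%) and long noncoding RNAs the other 46.7%, against 87.6% and 12.4% for peaks found later. The median window of the regions held 6 CpG dinucleotides and 52.0% G and C, and that of the peaks found later held 23 CpG and 62.7%. By the rule of over 50% G and C and an observed over expected CpG ratio over 0.6, 20.2% of the regions' windows were CpG-rich, against 74.8%. Of CpG-rich windows open at E13.5, 0.576% (52 of 9030) were E13.5 only; of other windows, 6.36% (205 of 3223) were. Within the other windows, the share was 17.6% (14.9 to 20.8%) for long noncoding RNAs and 3.56% (2.91 to 4.35%) for protein-coding genes. The P0-only windows gave 51.5% protein-coding, 14.9% CpG-rich and a median of 8 CpG. The 257 windows belong to 230 genes, and 64 of these genes have another tabled start, which in 26 genes was met by a peak found later. In 5 windows a later peak touched another part of the window than the region did.

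Most of the regions lay far from any tabled start, and not every gene had one. The median distance from a region's centre to the nearest RefSeq start was 27.6 kb (quartiles 11.0 and 71.9 kb, over the 7174 regions on chromosomes with tabled starts), and 4.39% (3.94 to 4.89%) lay within 1 kb. Peaks found later had a median of 5.33 kb, and 43.8% of them lay within 1 kb. The regions that appear at a single later stage lay farther out still, at medians of 50.1 kb (E16.5 only), 63.6 kb (P0 only) and 36.0 kb (P3 only). Among regions 1 to 50 kb from a start, 48.1% were upstream of it (46.6 to 49.6%), close to the 48.4% of peaks found later.

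**Figure D2:**
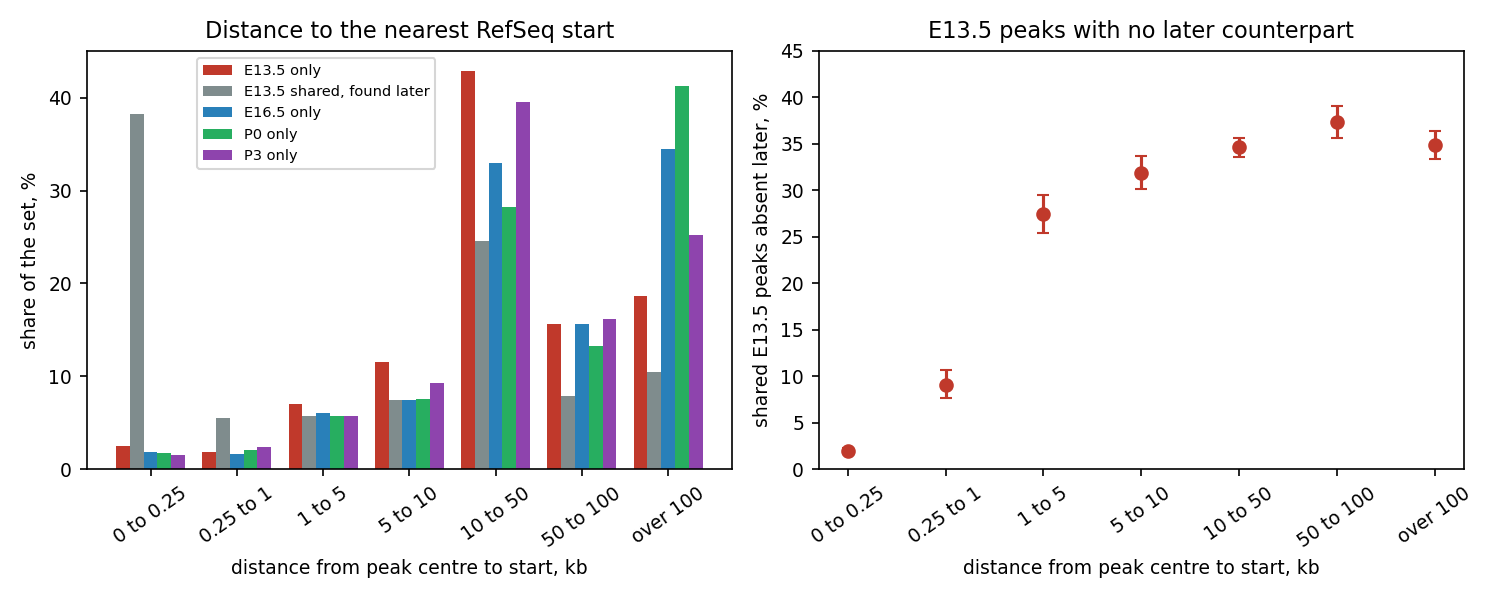
Left, share of each set of peaks (y axis, %) by distance from the peak's centre to the nearest RefSeq start (x axis, kb). Right, share of shared E13.5 peaks in each distance class that no later list met, with 95% Wilson intervals; it is 2.0% within 0.25 kb, 9.08% at 0.25 to 1 kb, 27.4% at 1 to 5 kb and 37.3% at 50 to 100 kb.

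Read the other way, the share of shared E13.5 peaks that was E13.5 only varied with distance from a start. It was 2.0% (1.73 to 2.3%) within 0.25 kb of a start and 27.4% at 1 to 5 kb, then 31.9%, 34.6%, 37.3% and 34.9% in the classes out to more than 100 kb. By gene ends, meaning within 1000 bp of either boundary of a RefSeq gene, 5.38% (729 of 13552) of shared peaks at an end were E13.5 only and 36.8% (6718 of 18270) of those elsewhere. Of all shared peaks 23.4% were (22.9 to 23.9%). The regions at gene ends made up 9.79% of the set (9.13 to 10.5%), near the 9.27% that the same regions gave when moved by 100 kb. Peaks found later had 52.6% at gene ends, against 11.5% when moved. A further 52.7% of the regions lay inside a gene and 37.5% between genes, where the E16.5-only set had 50.7%, the P0-only set 63.3% and the P3-only set 43.7% between genes.

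The edge of the rule was thinly populated. A later peak lay within 100 bp of 64 regions (0.859%), within 500 bp of 324 (4.35%) and within 2000 bp of 1031 (13.8%), and the median gap to the nearest later peak was 9777 bp (quartiles 4408 and 21209 bp). On the other side, 33 of 24375 peaks counted as found later overlapped a later peak by at most 50 bp and 81 by at most 100 bp. Each later list on its own met 64.4 to 67.9% of the shared E13.5 peaks. Peaks met by 1 later list alone numbered 339 for E16.5 heterozygous, 726 for E16.5 knockout, 371 for P0 and 883 for P3 cells. The lists that define absence are longer than the E13.5 lists, at 53687, 57117, 67258 and 44760 peaks against 40448 and 39559. Read depth and the calling threshold are not given in the sources used here, so a region that was less accessible but not closed, and one open in fewer cells, cannot be told apart from a closed one.

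By the rule each region is overlapped by a knockout peak, so nearness of the peaks of both genotypes was set in part by the selection. The same overlap was asked of the peaks found later. The centres of the heterozygous and knockout peaks of a region were a median of 34.0 bp apart (quartiles 14.0 and 68.0 bp), against 25 bp (quartiles 10 and 56.0 bp) for peaks found later, and 99.1% of the pairs overlapped reciprocally by 50%. Peaks listed in a single genotype at E13.5 were also compared with the later lists. Of the 8626 heterozygous-only peaks, 56.3% (55.2 to 57.3%) met no later list, and of the 7737 knockout-only peaks 54.0% (52.9 to 55.1%), beside 23.4% of shared peaks. Of those peaks absent later, 8.80% and 9.96% lay at gene ends. *Morc1* itself held 1 region (chr16:48613793-48614293) in both genotypes, inside the gene, out of 2 shared peaks; such a peak does not check the genotype labels, since positions carry no signal.

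The regions were spread over all autosomes and X. Of the shared peaks of an autosome, between 19.6% (chromosome 19) and 27% (chromosome 1) were E13.5 only. Away from gene ends the range was 34.2 to 40.0%, around 36.7% for all autosomes. The X chromosome gave 20.6% (18 to 23.4%) over all its 870 shared peaks and 39.6% (35 to 44.4%) away from gene ends; 53.6% of its shared peaks were at gene ends. X held 2.40% of the regions (2.08 to 2.78%), 2.83% of the peaks found later, 3.69% of the E16.5-only, 7.15% (6.73 to 7.59%) of the P0-only and 1.56% of the P3-only regions. None of the 6 shared peaks on Y was E13.5 only.

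**Figure D3:**
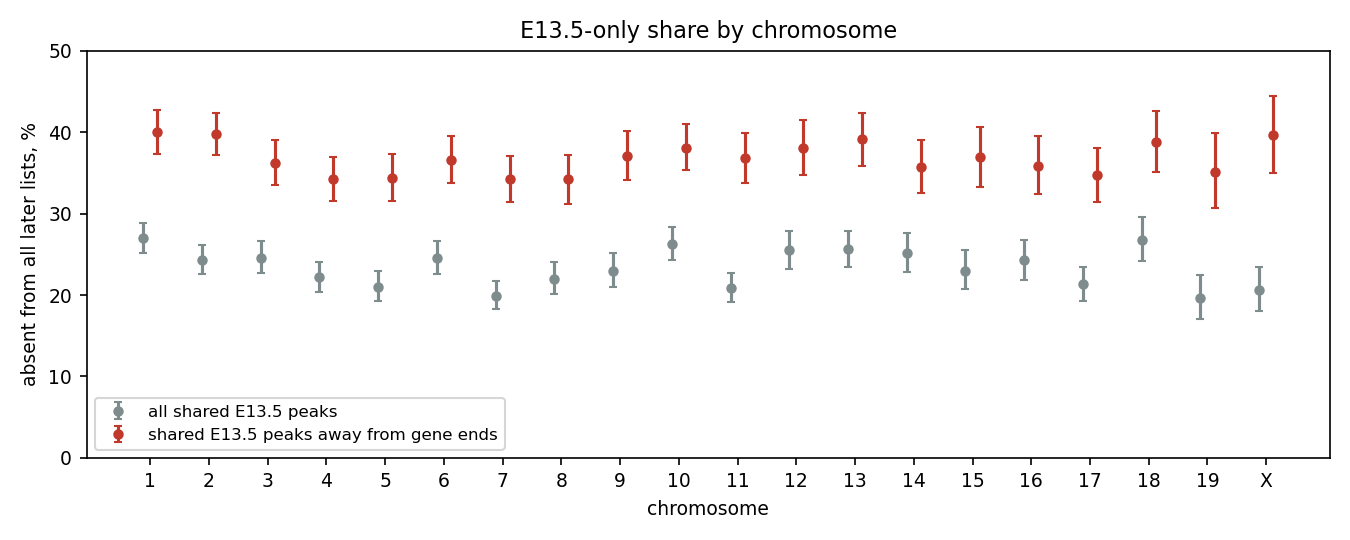
Share of shared E13.5 peaks that no later list met (y axis, %) on each autosome and X (x axis), for all shared peaks in grey and for those away from gene ends in red, with 95% Wilson intervals. The red points lie between 34.2 and 40.0%, X among them at 39.6%.

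The median gap from a region to the next region was 71.4 kb, 8.58% lay within 10 kb of another region, and 19.2% lay within 10 kb of an E13.5 peak found later. Among 519 windows of 1 Mb with at least 20 shared peaks, the median window had 19.2% E13.5 only and 4 windows had none. The highest window, chr8:78000001-79000000, had 14 of 23 (60.9%); it holds *Ttc29*, *Pou4f2*, *Rbmxl1*, *Slc10a7* and *Lsm6*, and 6 of its regions are in *Slc10a7*. The next was chr12:117000001-118000000 with 15 of 27 (55.6%), the end of *Ptprn2* with *Rapgef5*, *Cdca7l* and *Dnah11*. The windows chr18:74000001-75000000 (with *Myo5b* and *Mbd1*), chr4:57000001-58000000 (with *Ptpn3* and *Txn1*) and chr11:35000001-36000000 (with *Slit3*) had 50% each. The same 5 windows held 0 to 4 E16.5-only, 0 to 3 P0-only and 1 to 7 P3-only regions.

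Of 14552 protein-coding genes with a shared E13.5 peak in or within 1000 bp of their bounds, 2773 (19.1%) held an E13.5-only region, and of the 21015 shared peaks in those genes 18.6% (3905) were E13.5 only. A single region was held by 1999 of the genes, 502 held 2 and 272 held 3 or more. Genes with a region were longer, at a median of 86.4 kb against 21.0 kb for genes with shared peaks and no region, and counts of regions per gene were not corrected for length. Among genes with a region, 74.8% of the 2119 with tabled starts had a start open at E13.5, against 83.4% for genes with no region. In 127 genes the start itself was in a region, and by the rule such a peak is in no later list. Of the 1459 genes with a region elsewhere and a start open at E13.5, 87% had the start open in all later lists, against 89.5% for genes with no region.

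The genes with the most regions were long. They were ranked by peaks absent later, so lower peak numbers in the later lists follow in part from that choice. *Ptprn2*, which encodes a phosphatase-like protein of secretory granules, and *Sox5*, a SOX transcription factor, held 10 each, of 15 and 16 shared peaks. *Ptprn2* had 17 and 20 peaks in the E13.5 lists (heterozygous, then knockout), 19 and 20 in the E16.5 lists, 9 at birth and 7 at P3, and it held 7 E16.5-only regions. *Mast4* held 9, and *Elmo1* (engulfment and cell motility), *Slit3* (a secreted guidance ligand), *Snd1*, *Fhit* and *Tenm2* held 8 each. *Slit3* had 14 and 11 peaks in the E13.5 lists, 2 and 3 in those of E16.5, 2 at birth and 6 at P3. *Elmo1* had 13 and 14 in its E13.5 lists, then 5 and 6 by E16.5, 2 at birth and 3 by P3. *Xylt1*, a xylosyltransferase that starts proteoglycan chains, had 9 and 10 peaks at E13.5 and 1, 1, 1 and 2 in the later lists; 7 of its 9 shared peaks were regions and the gene held no region of a single later stage. *Ncald*, *Diaph3*, *Ntm*, *St6galnac3*, *Utrn* and *Tenm3* also held 7, and *Btbd9*, *Myo10*, *Ppp2r5c*, *Slc10a7* and *Pard3* held 6. In *Tenm3* peak numbers were higher later, with 21 and 28 in the E13.5 lists but 44 and 50 in those of E16.5, although 7 of its 19 shared peaks were regions.

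By share, *Btbd9*, *Myo10*, *Ppp2r5c* and *Slc10a7* had 6 of 7 shared peaks E13.5 only, among genes with at least 5. This ranking also picks genes with fewer peaks later, so the peak numbers given next follow in part from it. *Btbd9* had 11 and 10 peaks at E13.5 and 1 in every later list. *Ppp2r5c*, a regulatory subunit of protein phosphatase 2A, had 9 and 7 peaks, then 2, 2, 1 and 1. *Trappc9* had 9 and 7, then 1, 1, 2 and 1. *Arhgap42*, *Reln* (a secreted matrix protein), *Sema6d* (a semaphorin) and *Trappc9* had 5 of 6 E13.5 only, and *Fbxo36*, *Fggy*, *Gmds*, *Nfib*, *Pard3b* and the cadherin gene *Cdh4* 4 of 5. In 373 genes every shared peak was E13.5 only, and in 341 of these it was the gene's sole shared peak.

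Genes of the primordial germ cell list, which make or sustain the early germ line, had a region in 8 of the 19 members with a shared peak, and 16 of their 40 shared peaks were E13.5 only (40.0%, 26.3 to 55.4%), above the 18.6% of all protein-coding genes. *Prdm1* accounted for 6 of the 16. It encodes BLIMP1, the repressor that sets aside germ cell precursors. It had 10 peaks in each E13.5 list, 6 in each E16.5 list, 2 at P0 and 3 at P3. Its 6 regions lie 10.2, 19.7, 30.4, 48.4, 57.3 and 61.7 kb upstream of the RefSeq start, the nearest at chr10:44468673-44469173 and the farthest at chr10:44520160-44520660, within the outer bounds of the gene. The start itself and a peak at 70.8 kb upstream were met in all 6 lists, and the peaks near 24.6 and 34.5 kb upstream were met at E16.5 in both genotypes and not at P0 or P3. E13.5-only regions, peaks shared with E16.5 alone and peaks of every list thus stood side by side in *Prdm1*.

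*Kit*, the receptor for stem cell factor on migrating germ cells, held 2 regions of 3 shared peaks (chr5:75586637-75587137 and chr5:75601522-75602022); the gene had 4 peaks in each E13.5 list, 4 in each E16.5 list and 1 in either postnatal list. The first lies 517 bp from an E16.5 knockout peak, and the gene also held 2 E16.5-only regions. *Elavl2*, an RNA-binding protein gene, held 3 of 6, each 36600 bp or more from any later peak. *Ifitm1* had 1 peak in both E13.5 lists and none in the later lists. *Ifitm3* had 1 at E13.5, none at E16.5 in heterozygous cells and 1 in each other list, at another position. *Dnd1*, an RNA-binding partner of NANOS proteins, held 1 region, which lies at its neighbour *Wdr55* as well, 1113 bp from a P3 peak. *Sox17* and *Lin28b* held 1 each of 2.

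In the pluripotency list 8 of 19 genes held a region and 9 of 27 shared peaks were E13.5 only (33.3%, 18.6 to 52.2%). The single shared peak of *Lin28a*, *Prdm14*, *Gdf3*, *L1td1* and *Nr5a2* was a region. *Prdm14*, a PR-domain factor needed to specify germ cells, had its region across 1 boundary of the gene (chr1:13127013-13127513), 8316 bp from a later peak. No start of this gene was tabled, so the region's distance from it is not given. *Lin28a* had 1 peak in each E13.5 list, none at E16.5, 1 elsewhere in the gene at P0 and none at P3. *L1td1*, an RNA-binding protein gene of pluripotent cells, had its region 1.42 kb after the start. *Trim71*, a let-7 target, held 2 of 3, and *Esrrb* and *Tfcp2l1*, transcription factors of naive pluripotent cells, 1 of 5 and 1 of 2. The region of *Nr5a2* has a P0 peak 171 bp away and that of *Gdf3*, a ligand of the TGF-beta family, a P3 peak 564 bp away.

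In the list of NANOS2, Nodal and FGF signalling, 9 of 23 genes held a region and 14 of 42 peaks were E13.5 only (33.3%, 21.0 to 48.4%). Among ligands and antagonists, *Fgf9* held 1 of 2 and *Lefty1*, a Nodal antagonist, its only shared peak (chr1:180934559-180935059), with no peak in any later list. Among receptors, *Fgfr2* held 3 of 4, at 8.10, 30.9 and 84.2 kb after the start, and *Acvr1b*, *Acvr2a* and *Acvr2b*, receptors of activin and Nodal, 1 of 2 each. *Fgfr2* had 5 and 4 peaks at E13.5 and 1 in each later list, near the start. Among transcription factors, *Etv5*, a target of FGF signalling, held 3 of 5, with 5 peaks in each E13.5 list and 2 in each later list; *Bnc2* held 2 of 4. Of the 12 pathway lists, these 3 had an interval reaching no lower than the 18.6% of all protein-coding genes, and the lower bound of pluripotency was itself 18.6%. With no later peak allowed within 500 bp, pluripotency had 8 of 27 (15.9 to 48.5%) and its interval took in the 18% of all such genes. With a reciprocal overlap of 50% its 9 of 27 stood, while the share of all such genes was 19.3%, inside its interval. With none allowed within 2000 bp, primordial germ cell specification and survival had 11 of 40 (16.1 to 42.8%). That interval took in the 16.6% of all such genes. The list of NANOS2, Nodal and FGF signalling kept 14 of 42 (21.0 to 48.4%). The intervals count peaks of the same gene as independent, which they are not. Under the main rule *Prdm1* gave 6 of the 16 primordial germ cell regions, and *Fgfr2* and *Etv5* gave 3 each of the 14 here. The intervals are thus no test of a list. The list shares were also not adjusted for where the peaks lie. Of all shared E13.5 peaks, 2.0% within 0.25 kb of a start and 34.6% at 10 to 50 kb were E13.5 only. The 33.3 to 40.0% of these 3 lists lie near the latter value, and the part of position was not tested. The lists were chosen with earlier results of these data known and are small, so the shares describe these genes only.

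**Figure D4:**
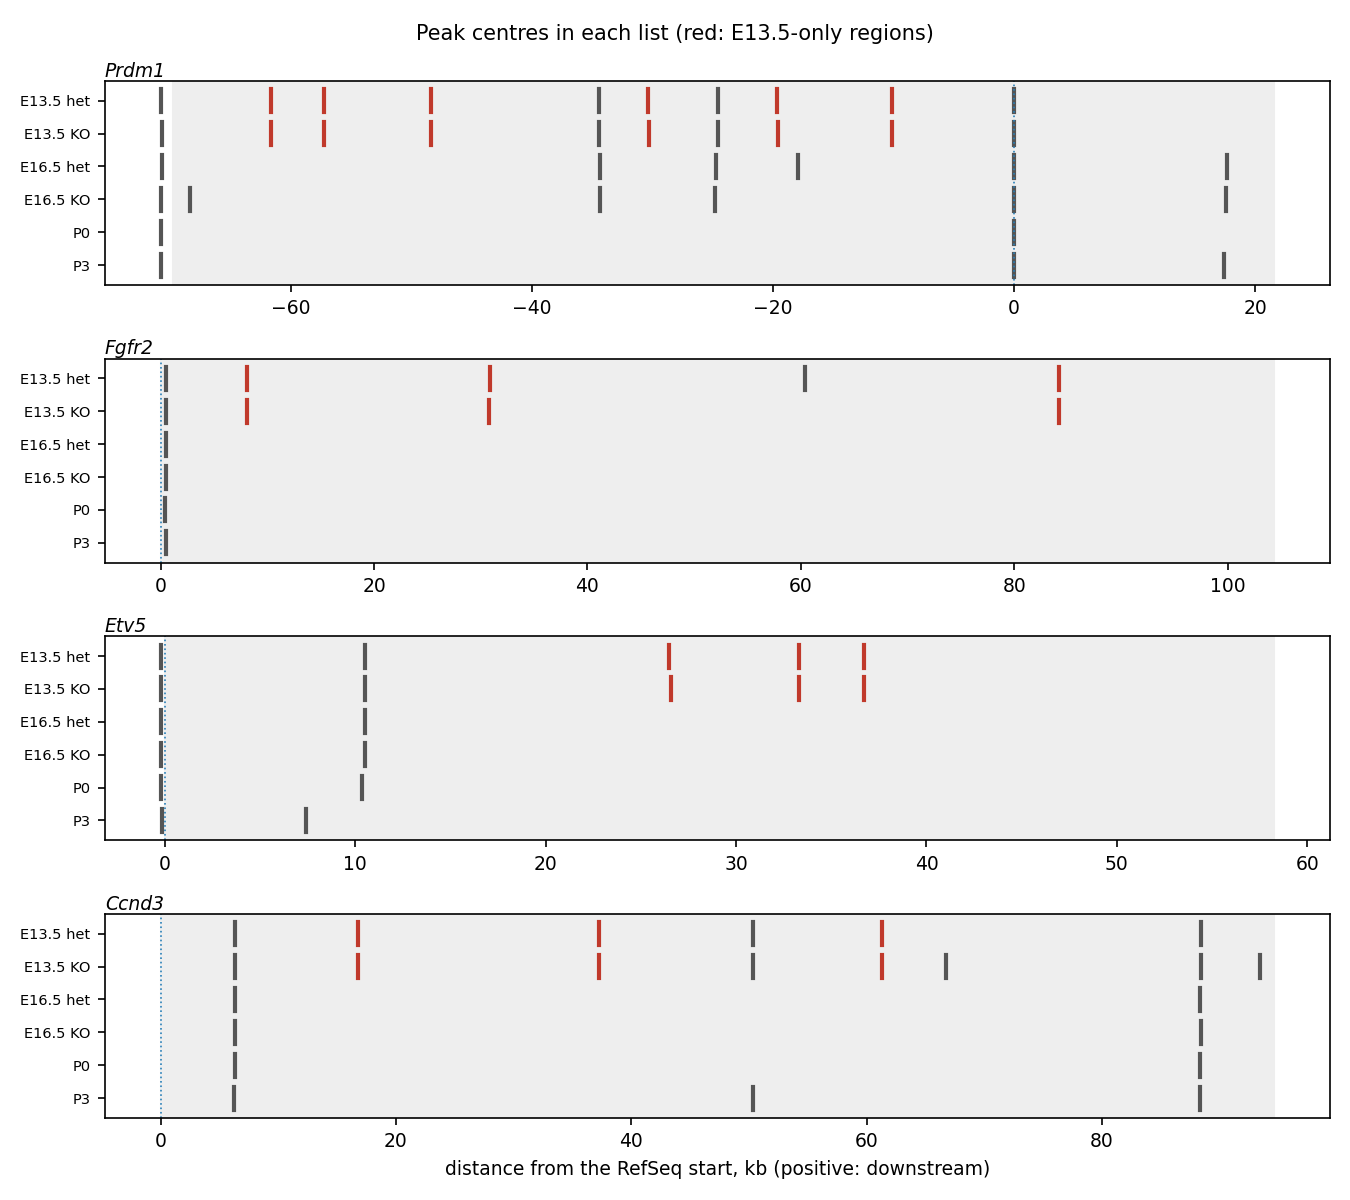
Peak centres of *Prdm1*, *Fgfr2*, *Etv5* and *Ccnd3* in each of the 6 lists (rows), by distance from a RefSeq start (x axis, kb, positive downstream), with E13.5-only regions in red, other peaks in dark grey and the gene's outer bounds shaded. The 6 red marks of *Prdm1* lie between the start and 61.7 kb upstream, in both E13.5 lists and in no later one.

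Meiosis genes had the lowest share of the 12 lists. Of 27 with a shared peak, *Spo11*, which makes meiotic DNA breaks, and *Mei1* held a region, and 2 of 33 shared peaks were E13.5 only (6.06%, 1.68 to 19.6%, an interval that reaches the background of 18.6%). At E13.5 a gene end was open in 25 of the 28 listed genes. The share of this list was not adjusted for how many of its 33 shared peaks lay at a gene end. Genes of DNA methylation (3 of 25 peaks, 12%, in *Dnmt1*, *Dnmt3a* and *Tet3*), chromatin regulators (6 of 47, 12.8%) and WNT and BMP signalling (8 of 53, 15.1%) were below 18.6% with intervals that include it. So was the piRNA and transposon list, with 5 of 29 (17.2%) in *Morc1*, *Piwil4*, *Tdrd3*, *Tdrd12* and *Henmt1*. Of the retinoic acid genes, *Dhrs3*, *Aldh1a2*, *Rarb* and *Rdh10* held 1 each (4 of 20, 20%).

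Among cell cycle genes 12 of 60 peaks were E13.5 only (20%, 11.8 to 31.8%), and all 3 D-type cyclin genes, which drive entry into S phase, were among the 8 genes of 42 with a region. Both shares of the list lie near those of all protein-coding genes, 18.6% of peaks and 19.1% of genes. *Ccnd1* and *Ccnd2* held their sole shared peak and *Ccnd3* 3 of 6. *Ccnd3* had 6 and 8 peaks at E13.5, 2 in each list at E16.5 and P0 and 3 at P3. The region of *Ccnd1* also lies at its neighbour *LTO1*. Their partner *Cdk6* held 2 of 5 and the retinoblastoma gene *Rb1* 2 of 4. In the adhesion and migration list 16 of 59 peaks were E13.5 only (27.1%, 17.4 to 39.6%), led by *Cdh4* with 4 and *Dlc1* with 3 of 7. *Cdh4* had 6 peaks in each E13.5 list, 2 in each E16.5 list and 4 at P0 and P3, of which 2 were P0-only and 1 P3-only regions. Of the spermatogonial stem cell list, *Etv5*, *Ret* and *Lhx1* held a region (5 of 23 peaks, 21.7%). The heterochromatin protein gene *Cbx3* held its sole shared peak, with an E16.5 peak 38 bp away, and *Lhx1* had one 39 bp away. Over the 12 lists, 70 of 281 genes with a shared peak held a region (24.9%), against 19.1% of all protein-coding genes. *Lgr5* and *Kdm4c*, a receptor of R-spondins and a histone demethylase, held 2 each.

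**Figure D5:**
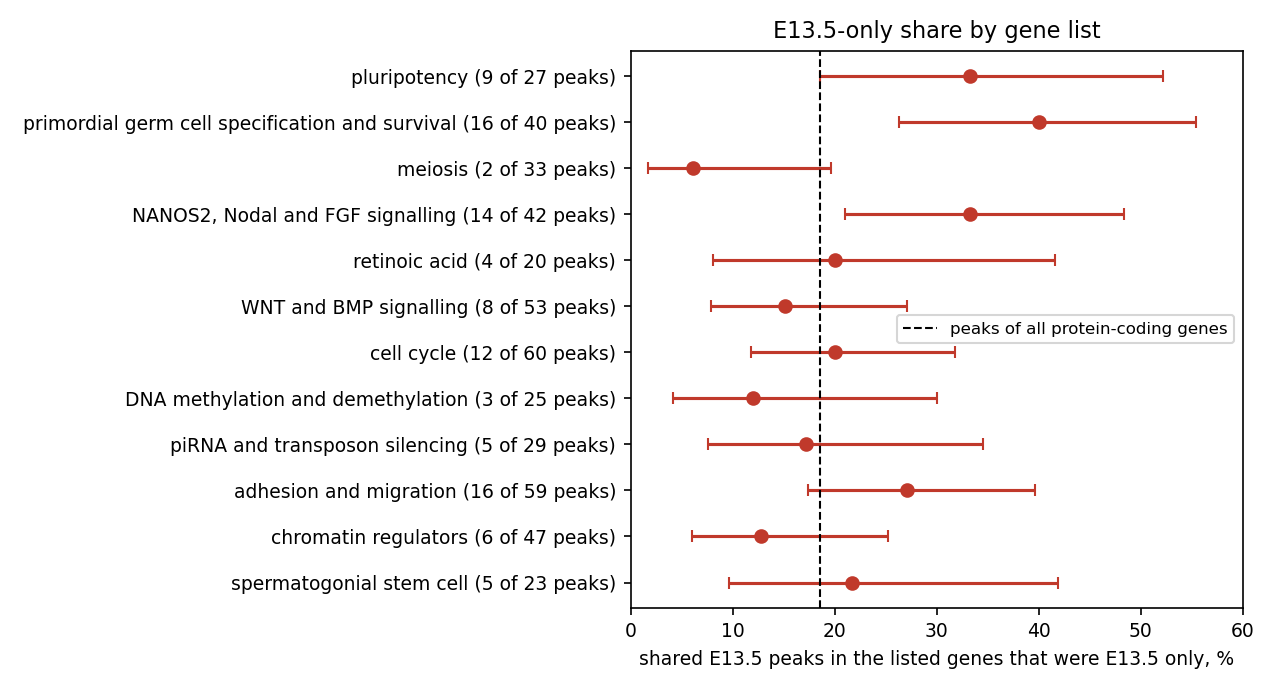
Share of the shared E13.5 peaks in or within 1000 bp of the genes of each list (y axis) that no later list met (x axis, %), with 95% Wilson intervals; the dashed line is the 18.6% of all protein-coding genes. Primordial germ cell genes are at 40.0%, pluripotency genes and the NANOS2, Nodal and FGF list at 33.3% each, and meiosis genes at 6.06%. Shares are not adjusted for the position of the peaks relative to gene ends.

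Markers of other cell types of the testis were present in the lists that define the regions. At E13.5 a gene end was open in both genotypes for 4 of 9 germ cell markers (*Ddx4*, *Dazl*, *Dnd1* and *Mael*), 4 of 11 Sertoli, 3 of 8 Leydig, 6 of 12 interstitial and mesenchymal, 4 of 9 endothelial, 1 of 8 macrophage and 1 of 7 red cell markers. An open gene end is not expression. The later lists gave 4 to 5 of the germ cell markers and 4 to 6 of the Sertoli markers. Of the 12 interstitial and mesenchymal markers, 7 and 8 had an open gene end at E16.5 (heterozygous and knockout), 10 at P0 and 7 at P3. Among markers with a shared peak, 1 E13.5 region each was in *Wt1* (1 of 6 Sertoli), *Ptch1* (1 of 4 Leydig, with a P3 peak 51 bp away) and *Pdgfra* (1 of 9 interstitial and mesenchymal). So it was in *Cx3cr1* and *Mrc1* (2 of 3 macrophage) and in *Dnd1* (1 of 4 germ cell). None of the 5 endothelial or 2 red cell markers with a shared peak held a region. Over all protein-coding genes with a shared peak the share with a region was 19.1%. *Cx3cr1* had 1 peak in each E13.5 list and none later. The part of other cells in the regions was not tested.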

How the data were processed

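ATAC-seq was measured in 16 samples, and the authors deposited 8 lists of peak positions, 1 per stage and genotype, in a unit of position only, with no score, height or count. Per the submitters' processing notes, bcl2fastq 2.20, cutadapt 1.18, Bowtie2 2.3.4.1, deepTools 3.5.0 and HOMER 4.10 were used with build mm10. The peak caller's settings, the depth and any pooling of samples are not given in the sources used here. Groups came from the sample titles. Overlaps (at least 1 bp) were computed with Python 3.11.15, pandas 2.3.3 and numpy 2.4.6, drawn with matplotlib 3.10.9, tested on simulated data and checked with bedtools 2.31.1, which gave 7447 regions as well. Comparison sets were E13.5 peaks found later and regions at 1 later stage only (E16.5 in both genotypes, P0 and P3 from a single list each). Genes, 32851 start windows and sequences are from RefSeq GRCm38.p6. Starts on chromosome 18 were not used here, so start distances cover 7174 regions. Tabled starts were also missing for some genes of other chromosomes, such as *Prdm14*. They existed for 2119 of the 2773 genes with a region and 9501 of the 11779 with a shared peak and no region. Distances and start windows thus refer to tabled starts only, and a distance to the true nearest start can be shorter. Intervals are 95% Wilson intervals over peaks; no test across samples was possible. Named are up to 30 listed genes with the most regions, the 20 protein-coding genes with the most regions, the 15 with the highest share among those with at least 5 shared peaks, and 5 windows of 1 Mb. Other genes of the lists are named to complete their counts, apart from 1 that is not reported here, and *Otx2* and the octamer genes were chosen after their values were seen. Members and lists were chosen with earlier results of these data known. Alternatives changed the overlap rule, the gene windows and the lists asked for absence.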

Additional observations from a re-analysis of the deposited data

How the results depend on the processing

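The share of shared E13.5 peaks that was E13.5 only, 23.4%, was 24.3% with a reciprocal overlap of 50%, 22.4% when no later peak was allowed within 500 bp and 20.2% within 2000 bp. When absence was not asked of the E16.5 heterozygous, E16.5 knockout, P0 or P3 list, it was 24.5%, 25.7%, 24.6% and 26.2%. In these settings the number of regions ran from 6416 to 8330. The share of regions at gene ends was 9.11% (500 bp) and 8.21% (2000 bp) under the distance rules, 6.54% with gene-end windows of 500 bp and 4.39% with protein-coding genes only. The share between genes was 36.1% under the 2000 bp rule and 47.6% with protein-coding genes only. The E13.5-only share at gene ends was 5.91% (reciprocal overlap), 4.79% (500 bp) and 3.89% (2000 bp), and that away from gene ends 38.0%, 35.4% and 32.2%. The other 34 of 53 recomputed values stayed within their interval (shares) or within 1.5 times (counts). The octamer share ran from 5.11 to 7.32%. Of the 104 named genes, 11 had no region left under the 2000 bp rule, among them *Ifitm3*, *Dnd1*, *Sox17*, *Gdf3*, *Spo11* and *Cdk6*. *Nr5a2*, *Cbx3*, *Cbx5*, *Lhx1* and *Ptch1* had none under the 500 bp rule either. With gene bounds widened to 10000 bp, 13 pluripotency and 4 meiosis genes held a region. The 2000 bp rule for positions and genes, the recomputed shares of the pathway lists, the octamer settings and the recomputed gene-end shares were chosen after seeing the data.

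No paired analysis was possible because each group has 1 list with no replicate in it, and leaving out a replicate was not run for the same reason. G and C content of the regions themselves was not computed here, since no genome was used. Depth behind the lists is unknown.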

Other observations

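Among 1005 microRNA hairpins, 125 lay within 1000 bp of a shared E13.5 peak and 12 of these within 1000 bp of an E13.5-only region (9.60%, 95% Wilson interval 5.58 to 16%). Counted over peaks and not hairpins, 23.4% of all shared E13.5 peaks were E13.5 only. The hairpin of *Mir153* (chr12:117250817-117250885, plus strand) lies inside a region of its host gene *Ptprn2* (chr12:117250405-117250905), 617 bp from an E16.5 peak. Its mature sequences are given with the seed, bases 2 to 8, in capitals.
miR-153-5p: gUCAUUUUugugacguugcagcu
miR-153-3p: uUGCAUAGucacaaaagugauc
The hairpin of *Mir200c*, a microRNA of epithelial cells, lay 963 bp from a region and that of *Mir191* lay 783 bp from one.

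The octamer followed 1 base later by the SOX core ACAA, in either orientation, is the arrangement in which OCT4 and SOX2 are known to bind side by side. This pattern was looked for after the octamers had been seen. It stood in 2 of the 257 start windows met by an E13.5-only region (0.778%, 95% Wilson interval 0.214 to 2.79%), those of *Pipox* and *Gm34201*, in 3 of 11996 windows of peaks found later and in 7 of all 32851. None of the E16.5-only, P0-only or P3-only windows held it. With 2 windows, the share is a description of these genes.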
